A study of Mus musculus with 11 samples.

Results

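The numbered zinc finger protein genes Zfp500 to Zfp999 were examined in mouse embryonic stem cells (ESCs), the cultured counterpart of the early embryo's pluripotent cells. Of 23284 gene rows, 172 carried a symbol in this range, and the 153 whose mean over the 8 ribodepleted libraries was above 1 TPM (a level scaled to transcript length and to the total of the library) were kept. The genes were thus selected on their symbol and on their measured level, which is given as a description. Just inside the limit were Zfp711 at 1.31, Zfp773 at 1.43 and Zfp697 at 1.44 TPM, and just outside were Zfp521 at 0.776, Zfp879 at 0.751 and Zfp784 at 0.722 TPM. Of the 19 genes left out, 2 were listed at 0 in every ribodepleted library. Among the 153, 5 genes (Zfp608, Zfp697, Zfp711, Zfp773 and Zfp964) had a mean at or below 1 TPM in at least 1 group.

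The 11 libraries formed 5 groups. Wild-type (WT) ESCs and ESCs lacking Tet1, Tet2 and Tet3 (triple knockout, TKO) were each sequenced as ribodepleted total RNA. This was done without treatment (0h) and after 4 h with 10 µg/ml α-amanitin (4h), with 2 libraries a group. A further 3 libraries of WT ESCs, whose labels name no treatment, were made from poly(A)-selected RNA (WT polyA). All cells were grown on gelatin in serum with LIF. α-Amanitin inhibits RNA polymerase II, so transcripts that decay quickly lose abundance relative to stable ones, and the comparison of TKO with WT cells addressed whether Tet loss alters that decay. The TKO cells are an existing line whose relation to the WT line is not given in the sources used here, so genotype and line cannot be told apart. Because TPM values are relative and no spike-in was used, a higher value after α-amanitin means a larger share of the remaining RNA, not new transcript.

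C2H2 zinc finger proteins are DNA-binding proteins in which pairs of cysteines and histidines hold a zinc ion in each repeated finger. The largest mammalian subgroup carries an N-terminal KRAB domain that recruits the corepressor Trim28 (KAP1), which brings in Setdb1, heterochromatin protein 1 and histone deacetylases. Many KRAB zinc finger proteins silence endogenous retroviruses in ESCs, and their genes lie in chromosomal clusters that arose by duplication. Tet proteins oxidise 5-methylcytosine, in DNA and also in RNA.

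Coding sequences in the GENCODE M1 annotation of mouse genome NCBIM37 (mm9) matched 151 of the 153 genes; Zfp783 and Zfp862 remained without a class. A KRAB pattern with at least 1 finger was present in 89 genes, 51 had 3 or more fingers and no KRAB pattern, and 11 had fewer than 3 fingers. The same KRAB pattern occurred in 1.42% of all 22594 annotated proteins. The genes' coding sequences were poorer in GC than those of all coding genes, with a median of 45.4% against 51.6%. Chromosome 7 held 43 of the genes and chromosome 17 held 21. In 13 clusters, 71 of the genes lay within 250 kb of the next, the largest being 10 genes on chromosome 7 from 134376575 to 135029510 and 9 genes on chromosome 17 from 21704010 to 22593656.

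The repeated unit is shown by 2 neighbouring fingers of Zfp819, a KRAB zinc finger gene with 9 fingers on chromosome 7. In the 147 coding bases for residues 358 to 406, capitals mark the cysteine and histidine codons.
Zfp819: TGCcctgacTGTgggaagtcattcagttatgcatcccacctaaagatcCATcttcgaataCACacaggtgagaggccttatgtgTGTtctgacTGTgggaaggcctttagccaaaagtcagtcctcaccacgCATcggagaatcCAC

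The sequence 250 bases upstream of the annotated gene start (NCBIM37) is shown for the 2 genes with the largest falls after α-amanitin in WT cells, Zfp954 and Zfp819, and for 2 KRAB zinc finger genes with large differences between TKO and WT cells, Zfp600 (higher) and Zfp931 (lower). Capitals mark CG dinucleotides (CpG), the usual target of DNA methylation. The windows are chr7:7074164-7074413, minus strand, for Zfp954; chr7:50862289-50862538, plus strand, for Zfp819; chr4:146123975-146124224, plus strand, for Zfp600; and chr2:177813182-177813431, minus strand, for Zfp931. They hold 10, 17, 2 and 2 CpGs in that order.
Zfp954: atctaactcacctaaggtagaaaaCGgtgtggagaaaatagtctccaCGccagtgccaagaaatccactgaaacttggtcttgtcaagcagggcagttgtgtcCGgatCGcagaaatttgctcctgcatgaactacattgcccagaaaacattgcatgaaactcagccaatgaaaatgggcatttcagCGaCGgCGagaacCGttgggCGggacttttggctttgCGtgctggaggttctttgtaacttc
Zfp819: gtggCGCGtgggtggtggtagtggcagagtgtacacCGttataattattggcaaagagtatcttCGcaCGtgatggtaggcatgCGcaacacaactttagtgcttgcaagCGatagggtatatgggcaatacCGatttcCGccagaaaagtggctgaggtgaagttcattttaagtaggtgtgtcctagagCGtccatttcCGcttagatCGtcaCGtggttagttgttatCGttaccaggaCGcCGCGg
Zfp600: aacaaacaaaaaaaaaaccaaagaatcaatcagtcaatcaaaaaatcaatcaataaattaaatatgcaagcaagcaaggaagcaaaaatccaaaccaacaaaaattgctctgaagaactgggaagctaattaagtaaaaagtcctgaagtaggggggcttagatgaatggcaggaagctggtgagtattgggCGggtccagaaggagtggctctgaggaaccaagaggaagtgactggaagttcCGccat
Zfp931: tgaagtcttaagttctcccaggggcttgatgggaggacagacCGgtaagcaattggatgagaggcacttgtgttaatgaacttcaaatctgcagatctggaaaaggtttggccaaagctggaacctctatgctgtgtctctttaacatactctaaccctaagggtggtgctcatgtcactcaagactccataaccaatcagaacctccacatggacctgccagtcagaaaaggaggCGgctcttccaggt

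Over the 148 genes with such a window the median was 9.5 CpGs, against 15 over the 11596 tested genes with one. At least 10 CpGs were found in 50% of these Zfp windows, in 35.6% of those of KRAB genes, in 72.0% of those of all tested genes and in 46.9% of the windows of all 22097 coding genes. An annotated start need not be the start used in these cells.

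Near-identical copies limit some values. In 12 of the 151 genes, more than 10% of all 100-base windows of the coding sequence also occurred in another gene, with 64.9% for Zfp960 (closest to Zfp97), 61.4% for Zfp600 (closest to Gm13138), 26.2% for Zfp932, 15.4% for Zfp866, 13.8% for Zfp808 and 12.8% for Zfp931. Reads from such windows cannot be assigned by sequence, so the values of these genes are uncertain. Zfp960 and Zfp97 are identical over an unbroken run of 507 coding bases, of which the first 100 are shown.
Zfp960 and Zfp97: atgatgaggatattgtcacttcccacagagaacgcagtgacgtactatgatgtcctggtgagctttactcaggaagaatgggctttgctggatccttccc

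The ribodepleted libraries held 25223967 to 29478041 recovered reads and the poly(A)-selected ones 71876996 to 81250250, and every one of the 153 genes had at least 17 reads in every ribodepleted library. Values below are scaled TPM (TPM divided by a size factor of the library). Tet1 was at 143 and 124 in WT 0h and 30.0 and 30.2 in TKO 0h, and Tet2 at 55.5 and 48.1 against 7.73 and 7.17, whereas Tet3 was at 1.42 and 1.49 against 1.39 and 1.51; a count over the whole gene need not show the deletion of part of it. All 7 ESC markers were above 1 scaled TPM, with sums of 3240 to 4360 per library, while primitive endoderm markers (1 of 5 above 1) summed to 1.84 to 4.25 and trophectoderm markers (1 of 4 above 1) to 2.55 to 5.35; no listed marker was at 0 in all libraries. Fibroblast markers summed to 7.54 to 13.9, with the WT 0h libraries lowest and TKO 4h highest, and neural markers to 165 to 218, most of it Tubb3; their part in the differences between groups was not tested. The most abundant of the 153 genes by mean scaled TPM over these libraries were Zfp568 (141), Zfp740 (85.4), Zfp828 (77.5; also named Champ1, a protein of chromosome alignment), Zfp936 (66.4) and Zfp598 (65.7). The ESC marker Zfp42 was at 497 and 482 in WT 0h and 117 and 113 in TKO 0h. Of the other ESC markers, Klf4, Esrrb, Sox2 and Pou5f1 were also lower in TKO 0h (log2 differences -0.98, -0.74, -0.35 and -0.34). Dppa5a was higher (0.22), and Nanog did not pass (limma, adjusted p under 0.05).

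One TKO library stood apart. Relative to the mean of the untreated libraries of its genotype, the median change of the 153 genes was -0.356 and -0.339 (log2) in WT 4h replicates 1 and 2, but -0.106 in TKO 4h replicate 1 and -0.293 in TKO 4h replicate 2. The median of all tested genes was 0.0119 to 0.0287 in these 4 libraries. The main counts and medians that use TKO 4h are therefore given also without each of its libraries; the other values rest on both.

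**Figure D1:**
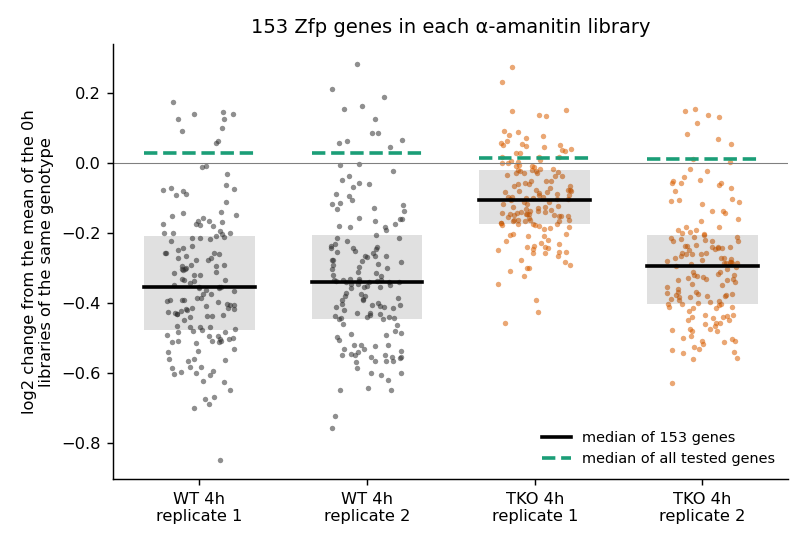
Log2 change of the 153 Zfp genes in each 4h library from the mean of the 0h libraries of the same genotype (y axis), 1 point a gene, with the median (black), the interquartile range (grey) and the median of all tested genes (green). The genes lie below all genes in each library, with medians of -0.356 and -0.339 in WT and -0.106 and -0.293 in TKO.

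In WT cells, most of the Zfp genes fell after α-amanitin and hardly any rose. Of the 153, 99 were lower and 2 were higher at an adjusted p under 0.05 (limma on log2 of scaled TPM plus 1, with Benjamini-Hochberg adjustment over 12467 genes), where 15.8% of all tested genes were lower and 21.9% higher. The median log2 change of the 153 genes was -0.355, against 0.029 over all tested genes, and 142 of the 153 were below 0. Only 8 fell by more than 1.5-fold, against 2.01% of all tested genes. These changes are on the log2(TPM + 1) scale, which understates changes of low genes. The 4h libraries were both below the 0h libraries for 135 of the 153 genes, compared with 32.4% of all tested genes. The number of genes that fell depended on each library, since it was 42 without WT 0h replicate 1, 65 without WT 0h replicate 2, 12 without WT 4h replicate 1 and 59 without WT 4h replicate 2, while the median stayed between -0.367 and -0.332. With each library as deposited, without size factors, 119 fell and none rose, against 3145 lower and 397 higher of all 12481 tested genes. The median was then -0.492, against -0.111 for all genes. With quantile normalisation 69 fell and none rose, against 1410 lower and 1501 higher of 12467 (median -0.263 against 0.041).

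Of the 10 largest falls, 8 were of genes with a KRAB pattern. Zfp954 was at 13.8 and 14.2 scaled TPM in WT 0h and at 7.33 and 8.08 in WT 4h, a fall of 0.79 on the log2 scale (SE 0.073, adjusted p = 0.00159). Zfp819, which helps to silence retrotransposons in pluripotent cells, went from 29.5 and 32.97 to 19.0 and 18.02 (log2 change -0.72, SE 0.0735, adjusted p = 0.00216). Zfp869 was at 45.8 and 45.2 before and at 27.6 and 28.7 after treatment (log2 change -0.67, SE 0.069, adjusted p = 0.00216). Here and in the lists of largest differences below, genes were named only among those whose groups did not overlap, so the absence of overlap is part of the rule. Zfp866 was at 31.1 and 28.5 against 18.3 and 19.3, although some of its reads may belong to a near-identical copy. For Zfp846 the values were 11.9 and 11.2 against 7.63 and 7.004, and for Zfp748 they were 13.6 and 13.2 against 8.199 and 8.97. Both encode KRAB zinc finger proteins with many fingers. Zfp773, one of the least abundant of the 153 genes, was at 1.92 and 2.29 against 1.07 and 1.06, and Zfp960, with its copy Zfp97, at 11.1 and 10.0 against 6.61 and 6.87. Without a KRAB pattern in their annotated coding sequence, Zfp768 (4.94 and 4.41 against 2.67 and 2.83) and Zfp655 (38.6 and 37.6 against 24.9 and 25.4) completed the 10 largest falls, whose adjusted p in limma were 0.00159 to 0.00820. Zfp768, Zfp748, Zfp773, Zfp655 and Zfp960 missed the threshold without WT 4h replicate 1, with adjusted p of 0.0516 to 0.0541.

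Only 2 of the 153 genes rose, Zfp706 with 1 finger and Zfp512 with 3. Zfp706, which restrains the self-renewal programme of ESCs, was at 62.9 and 63.0 in WT 0h and 68.8 and 70.2 in WT 4h (log2 change 0.14, SE 0.042, adjusted p = 0.0300). Zfp512 was at 34.9 and 33.5 against 38.7 and 39.1 (log2 change 0.18, SE 0.053, adjusted p = 0.0281). Neither passed with TPM as deposited or with quantile normalisation. With TPM as deposited Zfp706 turned to -0.017 and Zfp512 was at 0.027, with adjusted p of 0.829 and 0.773, and each missed the threshold whenever 1 of the WT libraries or 1 of the TKO 0h libraries was left out, with adjusted p of 0.0585 to 0.125.

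**Figure D2:**
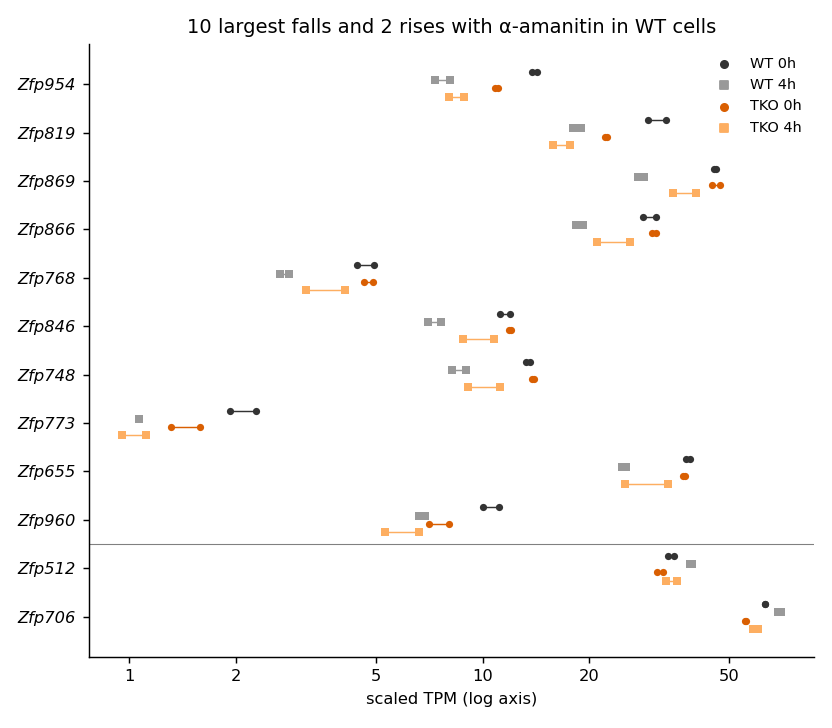
Scaled TPM (x axis, log scale) in each library of the 4 ribodepleted groups for the 10 largest falls after α-amanitin in WT cells and, below the line, the 2 rises. Each point is a library and a line joins the 2 libraries of a group. In WT the squares (4h) lie left of the circles (0h) for the 10 falls, as for Zfp954 at 7.33 and 8.08 against 13.8 and 14.2.

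Falls were counted by protein class, where 15.8% of all tested genes were lower and 21.9% higher, with a median log2 change of 0.029. Of the 89 genes with a KRAB pattern, 68 fell and none rose, with a median log2 change of -0.389. Of the 51 with 3 or more fingers and no KRAB pattern, 28 fell and Zfp512 rose (median -0.292), and of the 11 with fewer fingers, 3 fell and Zfp706 rose (median -0.218). Genes with up to 5 fingers had a median of -0.161, those with 6 to 10 fingers -0.375 and those with 11 or more -0.378. Across the 151 genes, Spearman's rho between the number of fingers and the WT change was -0.313, and between the mean level and the WT change 0.00651; these genes were measured in the same libraries, and the values describe them only. In clusters, 54 of 71 genes fell (median -0.395), and outside clusters 45 of 81 (median -0.318). The cluster of Zfp772, Zfp773 and Zfp954 on chromosome 7 from 7067401 to 7162506 had the lowest cluster median, -0.586, with all 3 genes lower. In the 5-gene cluster holding Zfp819 (chromosome 7, 50442540 to 50873655) all 5 fell, whereas in the cluster of Zfp524, Zfp579, Zfp580, Zfp628 and Zfp865 (chromosome 7, 4866819 to 5005324) 2 of 5 fell, with a median of -0.197.

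Among 23 genes listed for a known function, 19 belonged to the set. Of the others, Zfp521, Zfp703 and Zfp541 were below the level limit, with means of 0.776, 0.214 and 0.0737 TPM, and Zfp638 had no row under that symbol. In WT cells 11 of the 19 fell, 1 rose and 7 did not pass, where 15.8% of all tested genes were lower and 21.9% higher. Among the retroelement silencers, Zfp809, which binds the primer binding site of murine leukaemia virus, was at 25.1 and 25.02 before and 20.6 and 19.8 after treatment (log2 change -0.30, SE 0.0925, adjusted p = 0.0348). Zfp568, which represses a placental Igf2 transcript and was the most abundant of the 153 genes, was at 139 and 135 against 124 and 126 (log2 change -0.14, SE 0.042, adjusted p = 0.0329). Zfp932, a binder of endogenous retroviruses, was at 28.6 and 27.1 against 24.6 and 23.3 and did not pass (adjusted p = 0.144). Zfp830, needed for genome integrity and splicing in the early embryo, went from 21.9 and 21.5 to 14.0 and 14.8, a log2 change of -0.56 (SE 0.059, adjusted p = 0.00240), without overlap between the groups.

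Several of these genes encode partners of chromatin complexes. Zfp644, a partner of the histone methyltransferases G9a and GLP, fell from 53.8 and 52.3 to 40.2 and 42.5 (log2 change -0.35, adjusted p = 0.0159). Zfp592 and Zfp532, which share a complex with Zfp687, fell by 0.33 and 0.16 on the log2 scale (adjusted p = 0.0181 and 0.0306), whereas Zfp687 itself was at 19.4 and 19.3 against 17.8 and 18.1 and did not pass (adjusted p = 0.181). Zfp827, a telomere-associated protein, Zfp746 (PARIS, a substrate of the ubiquitin ligase Parkin), Zfp516, an activator of the brown fat programme, and Zfp704 also fell, by 0.39, 0.27, 0.30 and 0.31 on the log2 scale (adjusted p = 0.0148, 0.0279, 0.0113 and 0.0159). Genes that did not pass included Zfp622, a factor of ribosome maturation, at 61.0 and 68.6 against 64.2 and 66.9, Zfp652 at 33.5 and 31.9 against 34.2 and 34.7, and Zfp609, a partner of the cohesin loader, at 10.2 and 9.05 against 8.46 and 9.13. Zfp711, at 0.832 and 0.806 against 0.728 and 0.760, and Zfp750, at 2.07 and 1.94 against 1.60 and 1.22, also did not pass. All these adjusted p are from limma. Of the 11 falls, Zfp819 and Zfp830 kept their call in each fit that left out 1 library, and the other 9 missed it in at least 1, with adjusted p of 0.0533 to 0.198.

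In TKO cells the change was smaller and none of the 153 genes passed. The background was 0.265% of all tested genes lower and 0.0% higher, and at an unadjusted p under 0.05 limma found 75 of the 153, all 75 below 0. The median log2 change was -0.209, against 0.014 for all tested genes, and 142 of the 153 genes were below 0. Both TKO 4h libraries were below both TKO 0h libraries for 104 of the 153 genes and for 25.9% of all tested genes. Without TKO 4h replicate 1, 72 of the 153 genes fell, against 9.84% of all tested genes, with a median of -0.292; without TKO 4h replicate 2, none passed and the median was -0.105. In these fits the single TKO 4h library was assumed to vary like the other groups. With voom on recovered reads 35 fell, against 4.0% of all tested genes. The call in TKO cells therefore depended on TKO 4h replicate 1 and on the model.

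The smallest p in TKO cells belonged to genes that also fell in WT. Zfp819 was at 22.5 and 22.2 in TKO 0h and 17.7 and 15.8 in TKO 4h (log2 change -0.40, SE 0.0735, adjusted p = 0.0707, with 0.0124 without TKO 4h replicate 1 and 0.277 without replicate 2). Zfp936 was at 63.4 and 62.5 against 53.2 and 46.2 (log2 change -0.34, SE 0.0665, adjusted p = 0.0825, with 0.00756 without TKO 4h replicate 1 and 0.243 without replicate 2). The groups did not overlap for either gene. Among genes above 0, Zfp706 was at 55.3 and 55.7 against 58.3 and 60.1 (adjusted p = 0.209, and turned to -0.004 with TPM as deposited), and Zfp512 was at 31.3 and 32.4 against 33.02 and 35.5 (adjusted p = 0.258). By class, the median TKO change was -0.235 for genes with a KRAB pattern, -0.185 for genes with 3 or more fingers and no KRAB pattern and -0.096 for genes with fewer fingers. Without TKO 4h replicate 1 these medians were -0.372, -0.234 and -0.110, and without TKO 4h replicate 2 they were -0.105, -0.136 and -0.088, so the order of the first and second classes turned with the library.

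For no single gene did the α-amanitin change differ detectably between TKO and WT cells. None of the 153 genes passed in either direction (limma interaction term; background 0.0% of all tested genes higher and 0.0% lower), 8 had an unadjusted p under 0.05, and the smallest adjusted p was 0.652. The value in WT was the more negative for 128 of the 153 genes (83.7%), compared with 45.6% of all tested genes, and the median difference, TKO change minus WT change, was 0.12 against -0.015. Without TKO 4h replicate 1 this held for 95 of the 153 genes, with a median difference of 0.038, and without TKO 4h replicate 2 for 137, with a median of 0.227. The size of the difference between genotypes was therefore set largely by a single library. The smallest p were those of Zfp954 (difference 0.44, SE 0.10, adjusted p = 0.652) and Zfp830 (difference 0.34, SE 0.084, adjusted p = 0.660). Zfp954 was at 10.9 and 11.1 in TKO 0h and at 8.84 and 8.05 in TKO 4h, a smaller step than in WT, and Zfp830 at 24.4 and 23.9 against 21.4 and 19.7. Below 0, Zfp740 (difference -0.090, adjusted p = 0.687) and Zfp579 (difference -0.26, adjusted p = 0.718) had the smallest p. Across the 153 genes, the WT and TKO changes had a Pearson r of 0.746 and a Spearman rho of 0.709, as a description over genes of the same 8 libraries; without TKO 4h replicate 1 they were 0.775 and 0.714, and without replicate 2 they were 0.465 and 0.477.

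**Figure D3:**
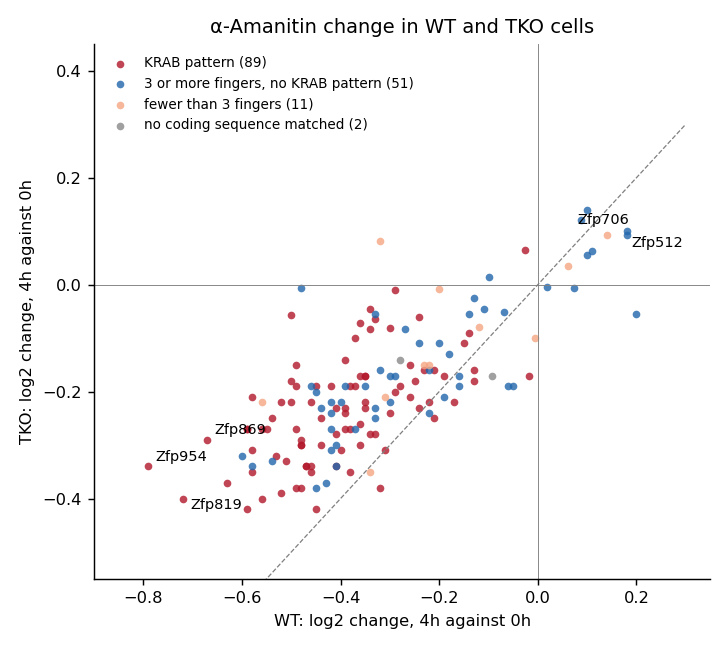
Log2 change from 0h to 4h in WT (x axis) and TKO cells (y axis) for the 153 Zfp genes, coloured by protein class; the dashed line marks equal changes. Most points lie below 0 on both axes, and 128 of the 153 lie above the dashed line, where the WT value is the more negative; without TKO 4h replicate 1 this number is 95.

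Without treatment, the Zfp genes differed between TKO and WT cells in both directions, with a smaller share of higher genes than among all tested genes. In TKO 0h against WT 0h, 15 of the 153 genes were higher and 51 lower (adjusted p under 0.05), where 27.8% of all tested genes were higher and 28.3% lower. The lower genes were thus 33.3% of the set, near the background, and the higher ones 9.8%. Past 1.5-fold, 7 were higher and 4 lower, against 10.4% and 5.45% of all tested genes. The median log2 difference was -0.125, against -0.020 for all tested genes. With TPM as deposited, 17 were higher and 28 lower, against 4168 and 2191 of all 12481 tested genes. The median was then -0.044, against 0.07 for all genes. With quantile normalisation 12 were higher and 62 lower, against 3366 and 3627 of 12467 (median -0.183 against -0.03). Without TKO 0h replicate 1, 10 were higher and 32 lower, and without TKO 0h replicate 2, 10 were higher and 36 lower. Of the genes with a KRAB pattern 4 were higher and 32 lower (median -0.146), of those with 3 or more fingers and no KRAB pattern 8 were higher and 14 lower (median -0.098), and of those with fewer fingers 2 were higher and 5 lower (median -0.162). The 7-gene cluster on chromosome 17 from 32908181 to 33243148 (Zfp563, Zfp763, Zfp799, Zfp811, Zfp870, Zfp871 and Zfp952) had 5 lower genes and none higher, with a median of -0.303.

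Among higher genes, Zfp600 was at 17.7 and 18.4 scaled TPM in TKO 0h and 7.85 and 6.98 in WT 0h (log2 difference 1.18, SE 0.12, adjusted p = 5.32e-05), with the limit that its coding sequence is largely shared with other genes. Zfp951, which shares none of its 100-base coding windows, was at 20.4 and 19.99 against 9.41 and 8.75 (log2 difference 1.07, SE 0.11, adjusted p = 6.53e-05). Both are KRAB zinc finger genes. Zfp697 was at 2.28 and 2.36 against 0.805 and 0.838, and Zfp711, a partner of the histone demethylase Phf8, at 1.86 and 2.07 against 0.832 and 0.806; both were under 1 scaled TPM in WT and passed the level limit only through TKO, so their difference is partly built in and supports nothing. Over the 148 genes above 1 TPM in every group, a choice made after seeing the data, 11 were higher and 50 lower. Zfp516 was at 11.7 in both TKO 0h libraries and 6.68 and 6.92 in WT 0h, and Zfp800 at 7.54 and 7.86 against 4.77 and 4.19. Zfp598, a ubiquitin ligase that acts on collided ribosomes, was at 76.6 and 76.5 against 53.8 and 51.5 (log2 difference 0.53, SE 0.049, adjusted p = 3.67e-05). These 3 genes were above 1 TPM in every group. Zfp618, which binds 5-hydroxymethylcytosine, the product of Tet oxidation, was at 3.48 and 2.94 against 1.81 and 2.09 (adjusted p = 0.00587, and 0.0512 without TKO 0h replicate 1). Zfp964, at 2.14 and 2.96 against 1.43 and 1.12, and Zfp608, at 1.79 and 2.07 against 1.45 and 0.971, closed the list; Zfp608 missed the threshold without TKO 0h replicate 1, TKO 0h replicate 2 or WT 0h replicate 2 (adjusted p = 0.0578, 0.156 and 0.198).

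The largest difference below 0 was that of Zfp532, at 41.7 and 42.0 in TKO 0h against 85.1 and 82.9 in WT 0h (log2 difference -0.99, SE 0.0475, adjusted p = 1.28e-06). Zfp931, whose coding sequence is shared in part with other genes, was at 8.25 and 6.92 against 16.2 and 14.2 (log2 difference -0.91, SE 0.13, adjusted p = 0.000522). Zfp532 belongs to a complex with Zfp592 and Zfp687, and Zfp931 is a KRAB zinc finger gene. Zfp939 was at 1.41 and 1.48 against 3.22 and 2.72, Zfp788 at 7.95 and 7.27 against 12.5 and 11.3, and Zfp799 at 12.2 and 12.1 against 19.8 and 17.6. Of these, Zfp788 and Zfp799 carry a KRAB pattern. For Zfp647 the values were 7.41 and 6.90 against 11.1 and 11.1, for Zfp808 26.3 and 26.2 against 40.6 and 38.2, and for Zfp760 10.7 and 10.2 against 16.3 and 15.1. Zfp654 (13.5 and 12.6 against 19.96 and 18.8) and Zfp595 (3.26 and 3.38 against 5.09 and 5.41) were the last of the 10, whose adjusted p in limma ran from 1.28e-06 to 0.00643. Of the 19 genes with a listed function, 7 were lower and 3 higher, where 28.3% of all tested genes were lower and 27.8% higher. Of the 7, Zfp644, Zfp932 and Zfp706 did not pass in limma with TPM as deposited (adjusted p = 0.285, 0.126 and 0.198). Zfp644 also missed the threshold with quantile normalisation (adjusted p = 0.087). Zfp809 was at 17.1 and 19.6 against 25.1 and 25.02 (log2 difference -0.43, SE 0.0925, adjusted p = 0.00390), Zfp819 at 22.5 and 22.2 against 29.5 and 32.97 (log2 difference -0.46, SE 0.0735, adjusted p = 0.000823), and Zfp568 was higher in TKO, at 157 and 153 against 139 and 135 (log2 difference 0.17, SE 0.042, adjusted p = 0.00690, and 0.0738 without TKO 0h replicate 1 or 0.0536 without WT 0h replicate 2).

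**Figure D4:**
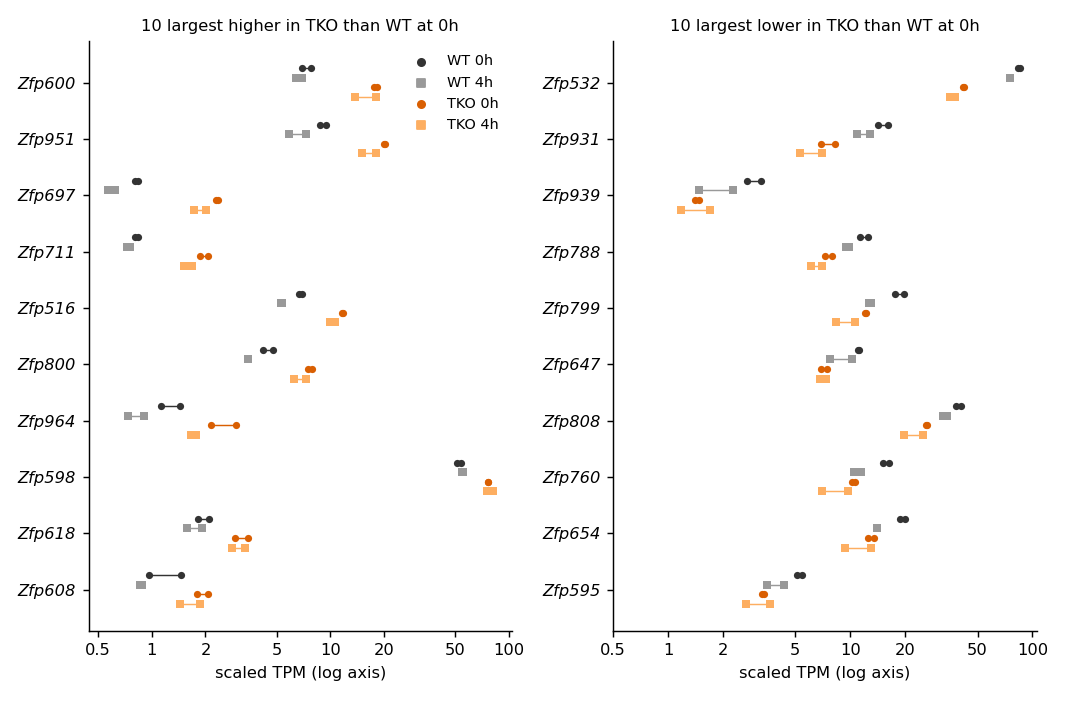
Scaled TPM (x axis, log scale) in each library of the 4 ribodepleted groups for the 10 genes with the largest positive (left) and negative (right) differences between TKO and WT cells at 0h; each point is a library and a line joins the 2 libraries of a group. The TKO libraries (orange) lie right of the WT libraries (grey and black) for Zfp600 and left of them for Zfp532 at both times.

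CpG content upstream of the start was set beside these differences as a description. The median was 6.5 CpGs for the 50 lower genes with a window, 12 for the 14 higher genes and 12 for the 84 that passed in neither direction. Of the 51 lower genes 32 carry a KRAB pattern, and of the 15 higher genes 4. The windows of all KRAB genes of the set had a median of 8 CpGs. The part of protein class in these medians was not tested. Over all tested genes the medians were 15 CpGs for genes lower in TKO and 15 for genes higher in TKO. Among the 10 largest differences on each side the counts ran from 0 (Zfp951) to 48 (Zfp618) for higher genes and from 0 (Zfp799) to 12 (Zfp760) for lower genes. Zfp600 and Zfp931, whose windows are printed above, lie on opposite sides with 2 CpGs each.

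After 4 h of α-amanitin the balance of TKO against WT cells was even. Of the 153 genes 33 were higher and 28 lower, where 29.0% of all tested genes were higher and 30.4% lower, so both shares were below the background. The median log2 difference was -0.002. This balance moved with scaling and with single libraries. With TPM as deposited 51 were higher and 8 lower, against 5035 and 2066 of all 12481 tested genes. The median was then 0.131, against 0.138 for all genes. With quantile normalisation 18 were higher and 48 lower, against 3337 and 3644 of 12467 (median -0.087 against -0.023). Without TKO 4h replicate 1 the median was -0.077, against -0.016 for all tested genes. Without TKO 4h replicate 2 it was 0.086, against 0.008. Leaving out WT 4h replicate 1 gave -0.029, against -0.014, and leaving out WT 4h replicate 2 gave -0.012, against -0.013. No direction of the set as a whole is therefore given at 4 h.

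Of the 15 genes higher at 0 h, 14 (93.3%) were also higher at 4 h, and of the 51 lower genes 24 (47.1%) were also lower. Over all tested genes these shares were 86.1% and 84.1%. The 14 genes are 42.4% of those higher at 4 h, and the 24 are 85.7% of those lower at 4 h. The 15 include Zfp697 and Zfp711, which passed the level limit only through TKO, so their repeat supports nothing. Zfp608 and Zfp964, also among the 15, had WT 4h means of 0.788 and 0.742 TPM. Of the 15, 11 were above 1 TPM in every group, and the repeat was not counted for these alone. Zfp697, Zfp711 and Zfp964 are also among the 10 genes with the largest positive differences at 4 h. The repeat of lower genes moved with the library: without TKO 4h replicate 1 it was 41 of 59 (69.5%, against 79.6% of all tested genes), and without TKO 4h replicate 2 it was 13 of 58 (22.4%, against 74.9%). For higher genes it was 13 of 16 and 16 of 16 in these fits. The libraries of these comparisons are separate, but the lines are the same. Both comparisons also take the spread of each gene from the same fit, so their calls are not independent. All 20 genes with the largest differences at 4 h passed without either TKO 4h library, with adjusted p in limma of at most 0.0343. Zfp951 was at 18.1 and 15.0 in TKO 4h against 7.34 and 5.85 in WT 4h (log2 difference 1.21, SE 0.11, adjusted p = 3.05e-05; 1.09 and 1.34 without TKO 4h replicate 1 and 2), Zfp600 at 18.1 and 13.7 against 6.94 and 6.398 (1.13, SE 0.12, adjusted p = 6.11e-05; 0.94 and 1.32) and Zfp532 at 37.7 and 35.2 against 75.2 and 75.1 (-1.02, SE 0.0475, adjusted p = 1.11e-06; -1.07 and -0.97). Zfp931 was at 6.98 and 5.27 against 10.9 and 12.9. Of the genes among the 10 largest differences at 4 h but not at 0 h, Zfp956 was at 11.8 and 9.64 against 6.47 and 6.48 (log2 difference 0.65, SE 0.091, adjusted p = 0.000358). Zfp740, second in abundance among the 153 genes, was at 65.9 and 67.3 against 101.5 and 101.7 (log2 difference -0.60, SE 0.040, adjusted p = 5.96e-06), and had been at 71.3 in both TKO 0h libraries against 102 in both WT 0h libraries. Zfp771 (16.7 and 17.8 against 23.7 and 24.8), Zfp953 (6.95 and 6.16 against 9.67 and 9.04) and Zfp664 (40.3 and 40.7 against 53.3 and 54.3) were also lower, with adjusted p of 0.00147, 0.00110 and 8.21e-05. All 3 had been lower at 0 h as well. Zfp932 was at 20.8 and 15.8 against 24.6 and 23.3 (adjusted p = 0.0127, and 0.0678 without WT 4h replicate 1; log2 difference -0.38, with -0.56 and -0.19 without TKO 4h replicate 1 and 2), with part of its coding sequence shared with other genes. Zfp830 was higher, at 21.4 and 19.7 against 14.0 and 14.8 (log2 difference 0.48, SE 0.059, adjusted p = 0.000161).

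In WT cells, most of these genes had lower values in the poly(A)-selected than in the untreated ribodepleted libraries. The comparison tested 149 of the 153 genes; Zfp608, Zfp697, Zfp711 and Zfp964 were too low in these libraries. In WT polyA, 31 were higher and 87 lower than in WT 0h (limma, adjusted p under 0.05), where 40.1% of all tested genes were higher and 40.9% lower. Past 1.5-fold, 8 were higher and 44 lower, against 18.7% and 16.4% of all tested genes, and the median log2 difference was -0.252 against -0.008. With TPM as deposited 41 were higher and 73 lower, against 5734 and 4197 of all 12478 tested genes (median -0.160 against 0.088). Library type, read number and sequencing experiment cannot be told apart here. By class, 60 of 88 genes with a KRAB pattern were lower (median -0.427), 26 of 49 with 3 or more fingers and no KRAB pattern were lower (median -0.201), and 8 of 10 with fewer fingers were higher (median 0.291).

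Zfp936 was at 30.7, 29.1 and 29.0 scaled TPM in WT polyA and at 96.7 and 91.4 in WT 0h (log2 difference -1.64, SE 0.0445, adjusted p = 9.90e-09). Zfp758 was at 2.39, 2.85 and 2.27 against 8.96 and 9.75, and Zfp644 at 20.7, 19.8 and 18.6 against 56.8 and 55.3. Zfp942 (7.71, 7.18 and 6.65 against 20.4 and 18.7) and Zfp867 (4.97, 4.51 and 5.03 against 13.1 and 13.3) were next. Of these 5 genes, all but Zfp644 carry a KRAB pattern. Zfp738, Zfp719, Zfp819, Zfp946 and Zfp647 differed by -1.13 to -1.08 on the log2 scale, with Zfp819 at 14.1, 15.0 and 14.8 against 31.1 and 34.8. In the other direction, Zfp516 was at 23.2, 23.9 and 21.7 in WT polyA and 7.05 and 7.31 in WT 0h (log2 difference 1.55, SE 0.055, adjusted p = 4.19e-08). Zfp579 was at 5.10, 5.48 and 4.74 against 1.36 and 1.64, Zfp580 at 9.55, 9.22 and 9.23 against 3.65 and 4.35, and Zfp692 at 44.1, 48.2 and 43.4 against 26.6 and 25.7. Zfp800, Zfp958, Zfp609, Zfp600, Zfp513 and Zfp617 were higher by 0.66 to 0.50 on the log2 scale.

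**Figure D5:**
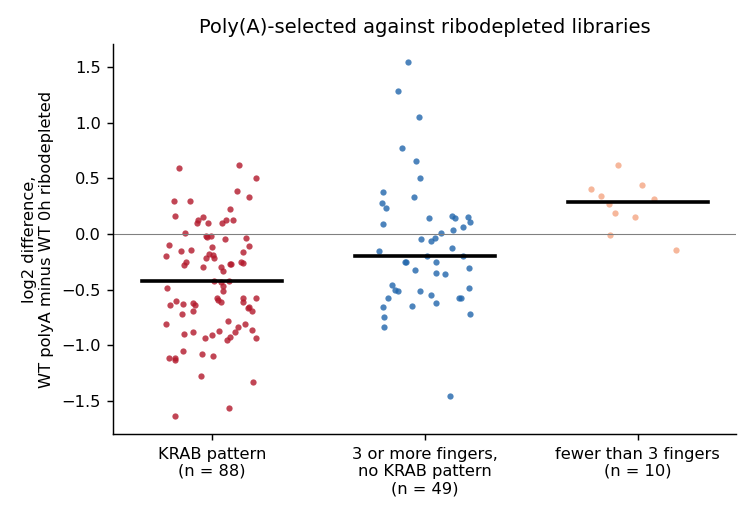
Log2 difference between WT polyA and WT 0h ribodepleted libraries (y axis) for the Zfp genes of 3 protein classes, 1 point a gene, with the class median as a black line. The medians are -0.427, -0.201 and 0.291 from left to right.

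The other zinc finger genes of this nomenclature, Zfp1 to Zfp499, were taken as the most similar genes. Of 168 rows, 151 were above the same limit. In WT cells 104 fell and 2 rose, where 15.8% of all tested genes were lower and 21.9% higher (median -0.352 against 0.029). In TKO cells none passed, where 0.265% of all tested genes were lower (median -0.217 against 0.014). The median was -0.299 without TKO 4h replicate 1 and -0.118 without replicate 2. At 0 h 13 were higher in TKO and 46 lower (8.61% and 30.5%), against 27.8% and 28.3% of all tested genes. The lower share was thus near the background. In WT polyA 23 of 150 were higher and 102 lower, against 40.1% and 40.9% of all tested genes (median -0.366 against -0.008). The difference between these genes and the 153 was not tested.

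The α-amanitin change of genes of the KRAB repression machinery in WT cells depended on the scaling. Of a list of 21 symbols 20 had a row. In WT cells 9 of these were higher after α-amanitin and 1, the imprinting regulator Zfp57, was lower, with a median of 0.137. Of all tested genes 21.9% were higher and 15.8% lower, with a median of 0.029. With TPM as deposited 3 were higher and 7 lower, against 397 and 3145 of all 12481 tested genes (median -0.022 against -0.111). With quantile normalisation 3 were higher and 4 lower, against 1501 and 1410 of 12467 (median -0.004 against 0.041). Trim28, the corepressor of KRAB zinc finger proteins, was at 1319 and 1357 scaled TPM in WT 0h and 1638 and 1690.0 in WT 4h (log2 change 0.31, adjusted p = 0.00878 in limma). Setdb1, the histone H3 lysine 9 methyltransferase that Trim28 recruits, was at 112 and 109 against 120 and 119 and did not pass (adjusted p = 0.0603). In TKO cells none of the 20 passed; without TKO 4h replicate 1, 4 were higher and 3 lower, and without replicate 2 none passed. At 0 h, 4 were higher in TKO (Cbx1, Atrx, Pphln1 and Smarcad1) and 10 lower, against 27.8% and 28.3% of all tested genes. The median was -0.129, against -0.02 for all genes. Among the lower genes, Trim28 was at 1152 and 1121 against 1319 and 1357. Cbx5, a heterochromatin protein 1, was at 150 in both libraries against 210 and 199. With TPM as deposited 5 were higher and 3 lower, against 4168 and 2191 of all 12481 tested genes (median -0.033 against 0.07). With quantile normalisation 5 were higher and 7 lower, against 3366 and 3627 of 12467 (median -0.02 against -0.03). The lower median of the list at 0 h thus depended on the scaling. At 4 h, 3 were higher in TKO and 12 lower, against 29.0% and 30.4% of all tested genes. The median was -0.171, against -0.006 for all genes, and -0.143 and -0.158 without TKO 4h replicate 1 and 2. With TPM as deposited 4 were higher and 4 lower, against 5035 and 2066 of all 12481 tested genes (median -0.015 against 0.138). With quantile normalisation 5 were higher and 7 lower, against 3337 and 3644 of 12467 (median -0.006 against -0.023). The lower median of the list at 4 h thus also depended on the scaling. In WT polyA 7 were higher and 12 lower, against 40.1% and 40.9% of all tested genes. The median was -0.320, against -0.008 for all genes. It was also below 0 with TPM as deposited (-0.216), quantile normalisation (-0.268) and voom (-0.321). The medians of all genes were then 0.088, 0.033 and -0.011.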

How the data were processed

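TPM values, one table per library, were deposited by the authors. Per the study's methods, reads were checked with FastQC and AfterQC, cleared of rRNA and tRNA reads with Bowtie2, trimmed with Trimmomatic, mapped to mm9 with STAR and counted per RefSeq gene with HTSeq before conversion to TPM; versions, strand setting and treatment of multimapping reads are not given in the sources used here. Duplicates are described as biological. The authors' own comparisons were not used.

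Whole reads were recovered from the TPM steps for 19868 of 19869 genes (tolerance 1e-06) and used only for depth and for voom. TPM was divided by median-of-ratios size factors, genes with a mean above 1 were kept, and limma 3.58.1 (R 4.3.3) with a variance trend was fitted to log2(scaled TPM + 1) over the 8 ribodepleted libraries, and separately over WT polyA and WT 0h. Called genes had an adjusted p under 0.05 (Benjamini-Hochberg, over all genes). The scripts were tested on simulated data. Named genes were the 10 largest changes per direction among genes past the threshold with non-overlapping libraries (otherwise the 2 smallest p), the most abundant genes, those at the level limit and a list with known functions. The genes and lists were chosen with earlier results of these data known. Genes were classed from translated GENCODE M1 coding sequences, the longest per gene, in place of the RefSeq proteins first planned, which were not used here (finger: C, 2 to 4 residues, C, 12 residues, H, 3 to 5 residues, H). Alternatives were other scalings, pseudocount, filter, variance model, replicate block, fold limit and leaving out each library.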

Additional observations from a re-analysis of the deposited data

Results flagged for a closer look

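Zfp738, a KRAB zinc finger gene with 20 fingers, was flagged because TKO libraries lay below WT libraries at 0 h and above them at 4 h. It was at 11.7 and 11.3 scaled TPM in TKO 0h against 13.1 and 12 in WT 0h, and at 11.6 and 10.0 in TKO 4h against 9.85 and 9.57 in WT 4h. The α-amanitin change in TKO minus that in WT was 0.26 on the log2 scale (SE 0.11), with an adjusted p of 0.672 in limma, so the difference did not pass; without TKO 4h replicate 1 it was 0.16 and without replicate 2 it was 0.36, with adjusted p of 0.782 and 0.157. Of its 100-base coding windows, 18.3% also occur in other genes.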

How the results depend on the processing

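The fall in WT cells kept its direction under every alternative. The number of genes that fell was 65 without a filter on low values, 8 with a 1.5-fold limit and 12 to 112 when 1 library was left out, and the number that rose was 0 with TPM as deposited, with quantile normalisation and with the 1.5-fold limit, 1 without a variance trend and 0 to 3 when 1 library was left out. The median WT change was -0.492 with TPM as deposited, -0.263 with quantile normalisation, -0.408 with a pseudocount of 0.1 TPM, -0.415 with voom and -0.367 to -0.332 without 1 library; the medians of all genes were then -0.111, 0.041, 0.033 and 0.034 for the first 4. In TKO cells 1 gene fell with TPM as deposited, 35 with voom and 0 to 72 without 1 library, with none higher (0 to 0), and the median was -0.292 to -0.105. For TKO against WT at 0 h, 28 genes were lower with TPM as deposited; the 1.5-fold limit left 7 higher and 4 lower; without 1 library 10 to 16 were higher and 32 to 59 lower. The median there was -0.044 with TPM as deposited, -0.183 with quantile normalisation, -0.149 with a pseudocount of 0.1 TPM and -0.151 with voom. The medians of all genes were then 0.07, -0.03, -0.021 and -0.02. Over the 148 genes above 1 TPM in every group (an alternative added after seeing the data) the median was -0.134. Without 1 library the median of the whole set was -0.155 to -0.105. At 4 h, 51 genes were higher and 8 lower with TPM as deposited, 18 and 48 with quantile normalisation, 6 and 3 with the 1.5-fold limit, and 19 to 51 and 15 to 44 without 1 library; the median was 0.131 with TPM as deposited, where the median of all genes was 0.138, and -0.077 to 0.086 without 1 library. The interaction count stayed at 0 (0 to 0 in each direction), while the median difference of the α-amanitin change was 0.038 to 0.227 without 1 library. For WT polyA, 8 were higher and 44 lower with the 1.5-fold limit, and 26 to 30 and 83 to 90 without 1 library. Zfp706 turned to -0.017 in WT and -0.004 in TKO with TPM as deposited. The cause of these shifts was not tested. For TKO against WT, Results gives the matching counts over all tested genes for TPM as deposited and for quantile normalisation.

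Replicate numbers did not pair the libraries: correlations of same-numbered libraries' deviations from their group means were -0.0443 to 0.119. A fit with the replicate number as a block gave 99 genes lower and 3 higher in WT, 0 in TKO, 16 higher and 55 lower at 0 h and 34 higher and 29 lower at 4 h, and changed no call of a named gene. With 2 libraries a group, small changes of low genes were not detectable, and p-values measure only the spread between these libraries.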
